A study of Mus musculus with 14 samples.

Results

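The 44 genes described here are endothelial genes, taken by name from the 49943 genes of the RefSeq annotation of GRCm38, the mouse genome build to which the deposited peak lists belong. They were listed for their known roles in blood and lymphatic vessels, at a time when earlier results of these data were known. ChIP-seq of 2 marks of lysine 9 on histone H3, crotonylation (H3K9cr) and acetylation (H3K9ac), was made from mouse kidney, and 14 peak lists were analysed, 1 for each library. The mice were WT C57BL/6J animals or ACSS2 KO animals, which carry a global deletion of the acyl-CoA synthetase gene Acss2, aged 6 to 8 weeks. Kidneys came from mice with unilateral ureteric obstruction (UUO), in which the left ureter is tied off and the kidney becomes fibrotic, or from control mice, which the labels mark only with the letter C and the methods describe as sham-operated. H3K9cr was mapped in 2 libraries of each of the 4 groups, and H3K9ac in 2 libraries of each UUO group and 1 library of each control group.

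Endothelial cells line every vessel of the kidney, from arteries and veins to the fenestrated capillaries of the glomerulus and of the tubules. They are held together by VE-cadherin junctions, depend on VEGF, angiopoietin and Notch signals, and keep their identity through ETS, SOX and KLF transcription factors. H3K9ac and H3K9cr lie mainly around the starts of active genes, and ACSS2 can supply the acetyl-CoA and crotonyl-CoA from which both marks are made.

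The value used for each gene was the length covered by peaks within 3 kb of either gene end (end cover), in kb. The lists hold positions without heights, so that end cover says how much of these windows passed the peak caller and not how strong the signal was. Read depth is unknown from the lists. Differences were tested with limma on log2(bases covered + 500) across all genes with a peak at an end in at least 2 libraries of the fit, two-sided, with Benjamini-Hochberg adjustment over all genes tested and a threshold of 0.05. The added 500 bases make the log2 differences of sparsely covered genes smaller than their ratios. Where values of a group are given in pairs they belong to replicates 1 and 2, in this order, and each control group had a lone H3K9ac library. The labels do not say whether replicates came from separate mice, so the p-values measure the spread between these libraries. In every H3K9cr group and in H3K9ac of ACSS2 KO UUO, the replicates differed in their peaks at sex-linked genes, as those of a male and a female mouse would. Whether the H3K9ac replicates of WT UUO came from separate mice is unknown.

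The libraries differed in ways that the labels do not give. H3K9cr lists held 32945, 36485, 45014 and 37456 peaks in the control libraries (WT replicates, then ACSS2 KO replicates) and 36734, 30406, 35638 and 27530 in the UUO libraries in the same order. H3K9ac lists held 25585 peaks in the WT control and 32760 in the ACSS2 KO control library, against 15988 and 18580 in WT UUO and 17271 and 24571 in ACSS2 KO UUO. The second ACSS2 KO UUO library of H3K9ac thus stood apart from the other 3 UUO libraries, close to the WT control library.

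All 14 libraries also fell into 2 kinds by their peaks at sex-linked genes. In 6 of them the ends of the 4 Y-linked genes Kdm5d, Ddx3y, Uty and Eif2s3y were covered and Xist was not, and in the other 8 the reverse held. Each H3K9cr group held 1 library of each kind, with Y-linked peaks in WT control replicate 2, ACSS2 KO control replicate 1 and replicate 1 of both UUO groups. For H3K9ac, the WT control library and ACSS2 KO UUO replicate 2 had Y-linked peaks, whereas the ACSS2 KO control library, both WT UUO libraries and ACSS2 KO UUO replicate 1 had an Xist peak. In each of the 5 groups that held both kinds, the library with Y-linked peaks had the greater summed end cover over the endothelial genes. For H3K9cr the sums were 98 against 65.9 kb in WT control, 120.8 against 87.2 kb in ACSS2 KO control, 83.8 against 64.3 kb in WT UUO and 80 against 51 kb in ACSS2 KO UUO. For H3K9ac in ACSS2 KO UUO they were 86.6 against 44.8 kb. The same libraries also held more peaks in all, and the part of either difference in the other was not tested.

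Acss2 itself carried a peak at an end in all 14 libraries, ACSS2 KO libraries included. Its H3K9cr end cover was 1.28 and 1.33 kb in WT control, 2.72 and 0.913 kb in ACSS2 KO control, 1.07 and 1.08 kb in WT UUO, and 0.799 and 1.58 kb in ACSS2 KO UUO. The deleted part of the gene is not stated in the text read here, so these peaks do not check the genotype labels. The tissue label was matched by the 10 proximal tubule genes, of which 9 or 10 had an H3K9cr end peak in each control library.

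Presence of the marks at the endothelial genes was close to that at protein-coding genes in general. An H3K9cr peak lay at an end of 26 of 44 genes in all 8 libraries, where 31.2% of all RefSeq genes and 53.8% of protein-coding genes had this. For H3K9ac the count was 23 of 44 in all 6 libraries, against 27.6% of all RefSeq genes and 49.8% of protein-coding genes. In all 14 libraries together 21 genes had an end peak, and 4 genes (Vwf, Erg, Lmo2 and Sele) had none in any library. All 44 are protein-coding, and 17 of them share an end window with another protein-coding gene, whose peaks cannot be told apart from theirs. Among the genes called below, these include Egfl7 (with Agpat2), Mmrn2 (with Sncg) and Icam2 (with Prr29), beside Ephb4 and Plvap.

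**Figure D1:**
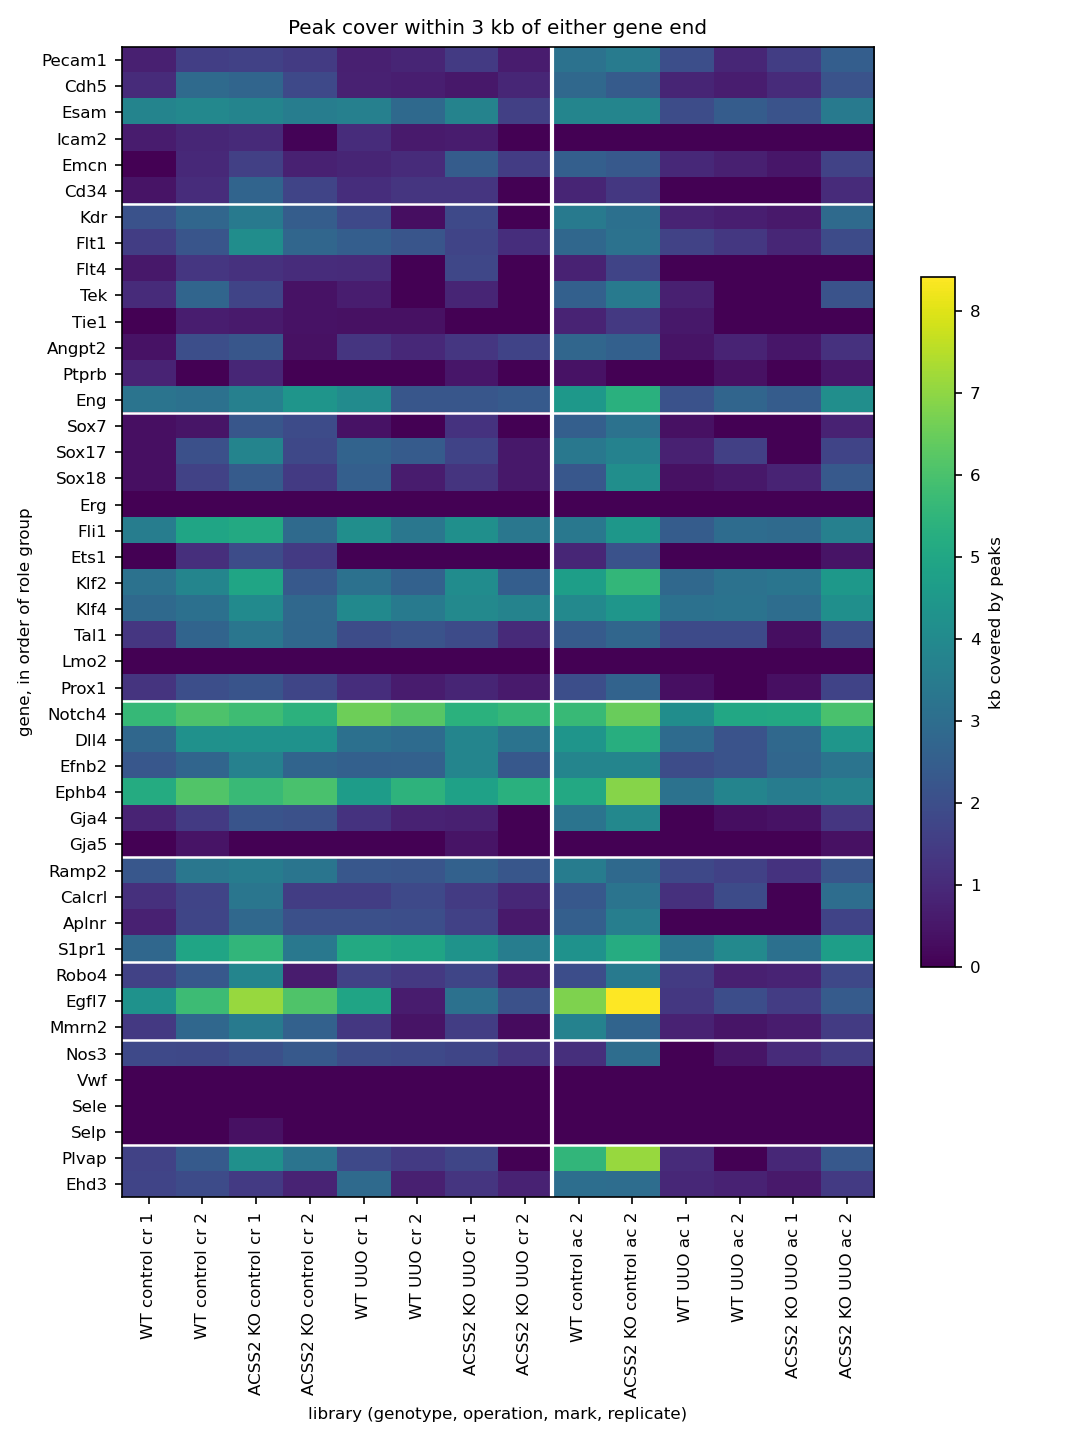
Peak cover within 3 kb of either end of each of the 44 endothelial genes (kb, colour scale) in the 8 H3K9cr libraries (left) and 6 H3K9ac libraries (right), with white lines between role groups. Notch4 and Ephb4 are covered throughout, Erg, Lmo2, Vwf and Sele are empty throughout, and most genes are darker in the first 3 H3K9ac UUO libraries than in the H3K9ac control libraries.

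UUO went with less H3K9ac at the endothelial genes. Summed over the 44 genes, H3K9ac end cover was 114 kb in the WT control and 136.3 kb in the ACSS2 KO control library, against 48.3 and 49.6 kb in WT UUO and 44.8 and 86.6 kb in ACSS2 KO UUO. All 4 UUO libraries lay below both controls, and the highest of them was the library that stood apart. Of the 37 genes tested, 11 fell with UUO and 0 rose (limma adjusted p from 0.0221 to 0.0454, n = 4 against 2). Of these 11, Flt4 met the filter of 2 libraries with a peak through the control libraries alone. Over all 18264 genes tested 12.6% fell and 0.159% rose, so that most calls were lower in the whole table too. The median log2 difference was -1.06 over the endothelial genes and -0.48 over all genes, and 36 of the 37 differences were negative, as were 94.4% of those of all genes. Every UUO library lay below both control libraries at 27 of the 37 genes, a count added after the values were seen, against 48.6% of all genes tested.

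The number of endothelial calls for H3K9ac rested on few libraries. Centring each library on its own median moved the all-gene median from -0.48 to 0.00. After it, the endothelial median was -0.58, the share of calls that were higher rose from 1.25% to 20.5% over all genes, and 2 endothelial genes, Egfl7 and Gja4, were called lower, beside 225 of the 18264 genes. No endothelial gene, and no gene at all, was called by limma when the WT control, the ACSS2 KO control, WT UUO replicate 1 or WT UUO replicate 2 was left out. With 1 control library left out, the lone control is assumed to vary like the other libraries. Without ACSS2 KO UUO replicate 1 the count was 4 beside 1315 of all genes, and without ACSS2 KO UUO replicate 2 it was 24 beside 3773 of all genes. With the Y-linked peaks as a term, a fit added after the data were seen that leaves 2 residual degrees of freedom, limma called 0 of 37 endothelial genes and 0 of all genes. In that fit 26 of 37 had an unadjusted p under 0.05, against 30.2% of all genes, with a median of -0.93 against -0.45 over all genes. Among libraries with an Xist peak the summed end cover was 136.3 kb in the control and 44.8 to 49.6 kb in the 3 UUO libraries, and among those with Y-linked peaks it was 114 kb in the control and 86.6 kb in the UUO library.

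For H3K9cr, with 4 libraries of each operation, the summed end cover over the 44 genes was 65.9 and 98 kb in WT control, 120.8 and 87.2 kb in ACSS2 KO control, 83.8 and 64.3 kb in WT UUO, and 80 and 51 kb in ACSS2 KO UUO. The control and UUO libraries overlapped, with WT control replicate 1 inside the range of the UUO libraries. Within each kind of sex-linked peaks they did not overlap. Among libraries with an Xist peak the sums were 65.9 to 87.2 kb in control and 51 to 64.3 kb in UUO. Those with Y-linked peaks had 98 to 120.8 kb in control and 80 to 83.8 kb in UUO. Of 39 genes tested, 2 fell (Cdh5 and Prox1) and 0 rose, where 7.96% of 21116 genes fell and 1.74% rose. Counted at an unadjusted p under 0.05 by limma, there were 9 of 39, against 26.4% of all genes. The median log2 difference was -0.35 over the endothelial genes against -0.13 over all genes, and 33 of 39 were negative, against 69.2% of all genes. Centring moved the all-gene median to 0.03, the endothelial median to -0.20 and the share of calls that were higher from 17.9% to 43.2% over all genes, with 2 endothelial genes lower and 1, Klf4, higher.

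Every UUO library lay below every control library at 3 of 39 genes (Prox1, Kdr and Cdh5), again a count added after the values were seen, against 13.7% of all genes. Leaving out any of the 8 libraries moved the number of H3K9cr calls. It was 4 without WT control replicate 1 (1685 of all genes called) or without WT UUO replicate 1 (2403). It was 0 without WT control replicate 2 (1445 of all genes), ACSS2 KO control replicate 1 (1321) or 2 (1309), WT UUO replicate 2 (1206), or ACSS2 KO UUO replicate 1 (1287) or 2 (1922). With the Y-linked peaks as a term, 5 genes were lower (Prox1, Tek, Kdr, Cdh5 and Mmrn2), where 1780 of the 21116 genes were lower and 417 higher. In bulk kidney, fewer endothelial cells and less of a mark per endothelial cell cannot be told apart, for either mark.

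**Figure D2:**
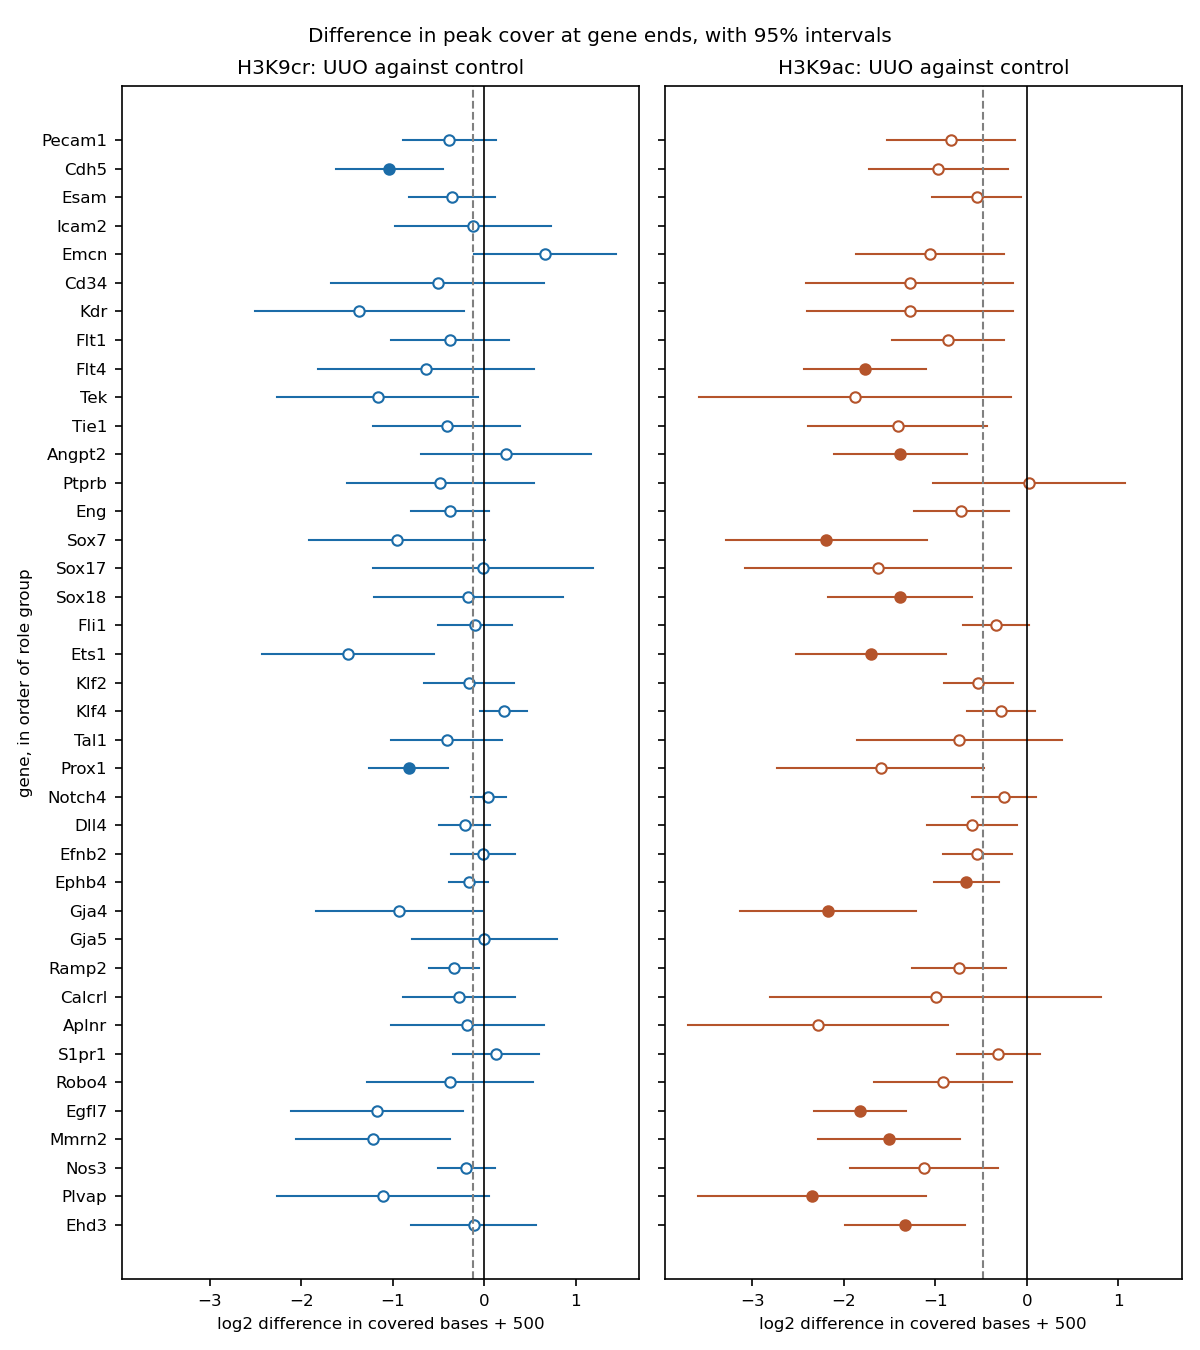
Log2 difference in end cover between UUO and control kidneys for each endothelial gene tested, with 95% confidence intervals, for H3K9cr (left) and H3K9ac (right), where filled points passed the adjusted threshold. The dashed line is the median of all genes, at -0.13 for H3K9cr and -0.48 for H3K9ac.

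Among the 6 junction and surface genes, Cdh5 encodes VE-cadherin, the adhesion molecule of endothelial junctions. H3K9cr covered 1.05 and 2.89 kb of its end windows in WT control, 2.75 and 1.86 kb in ACSS2 KO control, 0.778 and 0.701 kb in WT UUO, and 0.55 and 0.904 kb in ACSS2 KO UUO. All 4 UUO values lay below the lowest control value. Cdh5 fell by 1.04 on the log2 scale (95% CI -1.62 to -0.45, limma adjusted p = 0.0388, n = 4 against 4). H3K9ac there was 2.83 kb in the WT control and 2.41 kb in the ACSS2 KO control library, against 0.86 and 0.658 kb in WT UUO and 1.05 and 2.14 kb in ACSS2 KO UUO. These values did not overlap either, although the log2 difference of -0.97 missed the threshold (limma adjusted p = 0.0805).

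Pecam1 encodes CD31, an adhesion receptor used to stain vessels. H3K9cr covered 0.743 and 1.57 kb in WT control, 1.64 and 1.46 kb in ACSS2 KO control, 0.751 and 0.876 kb in WT UUO, and 1.42 and 0.632 kb in ACSS2 KO UUO. H3K9ac covered 3.17 kb in the WT control and 3.49 kb in the ACSS2 KO control library, 2.02 and 0.895 kb in WT UUO, and 1.53 and 2.53 kb in ACSS2 KO UUO. H3K9cr values of the operations overlapped, while H3K9ac was lower in all 4 UUO libraries (log2 difference -0.83, limma adjusted p = 0.0934).

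Icam2, a ligand of leukocyte integrins, had an H3K9cr peak at an end in 7 of 8 libraries and an H3K9ac peak in 0 of 6. Its H3K9cr end cover was 0.641 and 0.896 kb in WT control, 1.02 and 0.082 kb in ACSS2 KO control, 1.05 and 0.622 kb in WT UUO, and 0.649 and 0 kb in ACSS2 KO UUO. H3K9ac peaks of Icam2 lay inside the gene in 3 libraries, both controls and ACSS2 KO UUO replicate 2. The other 3 genes of the group were Esam, an adhesion molecule of tight junctions, the sialomucin endomucin (Emcn) and Cd34. None of them passed the threshold for UUO in either mark, and the group's median log2 difference was -0.37 for H3K9cr and -0.97 for H3K9ac.

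The 8 genes of VEGF, Tie and TGF-beta receptor signalling had medians of -0.44 for H3K9cr, with 0 genes called by limma, and -1.33 for H3K9ac, with Flt4 and Angpt2 lower. Kdr encodes VEGFR2, the main receptor for VEGF-A in endothelium. It carried 2.11 and 2.76 kb of H3K9cr in WT control, 3.45 and 2.49 kb in ACSS2 KO control, 1.86 and 0.317 kb in WT UUO, and 1.87 and 0 kb in ACSS2 KO UUO. H3K9ac covered 3.44 and 3.11 kb in the WT and ACSS2 KO control libraries, 0.845 and 0.707 kb in WT UUO, and 0.561 and 2.91 kb in ACSS2 KO UUO. Both marks were lower in every UUO library than in every control library, yet neither passed the threshold (log2 differences -1.37 and -1.28, limma adjusted p = 0.126 and 0.101). With the Y-linked peaks as a term, Kdr passed in H3K9cr and not in H3K9ac (limma adjusted p = 0.0401 and 0.13).

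Flt1 encodes VEGFR1, which binds VEGF-A as a decoy. Its H3K9cr end cover was 1.53 and 2.22 kb in WT control, 4.13 and 2.78 kb in ACSS2 KO control, 2.52 and 2.22 kb in WT UUO, and 1.74 and 1.11 kb in ACSS2 KO UUO. H3K9ac was 2.80 and 3.18 kb in the controls, WT first, 1.65 and 1.36 kb in WT UUO, and 0.905 and 1.94 kb in ACSS2 KO UUO. For H3K9cr the operations overlapped, and for H3K9ac the UUO libraries were all lower (log2 difference -0.86, limma adjusted p = 0.0679).

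Flt4 encodes VEGFR3, the receptor of lymphatic endothelium, and it was the gene of the 44 with an H3K9ac end peak in both control libraries and in none of the 4 UUO libraries, a pattern that 569 of all genes shared. H3K9ac covered 0.799 kb in the WT control and 1.73 kb in the ACSS2 KO control library. The log2 difference was -1.77 (95% CI -2.44 to -1.10, limma adjusted p = 0.0258). Flt4 met the filter of 2 libraries through the control libraries alone, so that no weight is put on this call. H3K9cr at Flt4 covered 0.545 and 1.33 kb in WT control, 1.21 and 1.07 kb in ACSS2 KO control, 1.03 and 0 kb in WT UUO, and 1.80 and 0 kb in ACSS2 KO UUO. The highest H3K9cr value was in an UUO library, and the replicates of each UUO group were far apart.

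Tek encodes TIE2, the receptor of the angiopoietins. At Tek, H3K9cr covered 1.03 and 2.75 kb in WT control, 1.71 and 0.417 kb in ACSS2 KO control, 0.661 and 0 kb in WT UUO, and 0.876 and 0 kb in ACSS2 KO UUO. H3K9ac covered 2.58 and 3.45 kb in the WT and ACSS2 KO controls, 0.737 and 0 kb in WT UUO, and 0 and 2.14 kb in ACSS2 KO UUO. Replicates of an UUO group again differed by presence or absence of the peak, and the log2 differences of -1.16 and -1.87 did not pass (limma adjusted p = 0.167 and 0.106). Tek passed in H3K9cr when the Y-linked peaks were a term, and not in H3K9ac (limma adjusted p = 0.0154 and 0.183). Angpt2, the TIE2 ligand that loosens vessels, fell in H3K9ac by 1.38 (limma adjusted p = 0.0399) and had a log2 difference of 0.23 in H3K9cr (limma adjusted p = 0.763). The test of whether UUO acted differently on the marks is given below for all genes. Tie1, Ptprb (a phosphatase that acts on TIE2) and Eng (endoglin, a TGF-beta co-receptor) completed the group without a call.

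Of the 11 transcription factors, 9 were tested in each mark. Prox1, the factor that specifies lymphatic endothelium and is also used in other tissues, fell in H3K9cr by 0.82 (95% CI -1.25 to -0.39, limma adjusted p = 0.0301). Its H3K9cr end cover was 1.26 and 2.03 kb in WT control, 2.18 and 1.76 kb in ACSS2 KO control, 1.09 and 0.657 kb in WT UUO, and 0.87 and 0.596 kb in ACSS2 KO UUO. No UUO value reached the lowest control value. H3K9ac at Prox1 was 2.02 and 2.67 kb in the controls, 0.339 and 0 kb in WT UUO, and 0.33 and 1.68 kb in ACSS2 KO UUO, with a log2 difference of -1.60 (limma adjusted p = 0.0671).

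Sox7, a SOX factor of early endothelium, fell in H3K9ac by 2.19 (95% CI -3.29 to -1.09, limma adjusted p = 0.0372). H3K9ac covered 2.55 and 3.16 kb in the controls, WT first, 0.385 and 0 kb in WT UUO, and 0 and 0.797 kb in ACSS2 KO UUO. All 4 UUO libraries were below 1 kb. The related Sox18 had 2.27 kb of H3K9ac in the WT control and 4.16 kb in the ACSS2 KO control library, 0.386 and 0.551 kb in WT UUO, and 0.854 and 2.35 kb in ACSS2 KO UUO, where the last value lay above the WT control. Sox18 and the ETS factor Ets1 also fell in H3K9ac, by 1.38 and 1.70 (limma adjusted p = 0.0454 and 0.0351). The median H3K9ac difference of the group was -1.38, and that of H3K9cr was -0.17.

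Ets1 was singled out after its values were seen, because its ends and its interior differed. H3K9cr at the ends covered 0 and 1.13 kb in WT control, 1.96 and 1.43 kb in ACSS2 KO control and 0 kb in all 4 UUO libraries (log2 difference -1.49, limma adjusted p = 0.0594). Inside the gene, away from the end windows, H3K9cr covered 9.04 and 11.8 kb in WT control, 16.9 and 11.3 kb in ACSS2 KO control, 26 and 20 kb in WT UUO, and 15.7 and 7.99 kb in ACSS2 KO UUO. The interior was thus covered most in the WT UUO libraries, whose ends were empty. The end peak lay at the left end of the gene on chromosome 9, such as chr9:32636301-32638257 in ACSS2 KO control replicate 1. H3K9ac showed end cover of 0.898 and 2.11 kb in the controls, 0 kb in both WT UUO libraries, and 0 and 0.446 kb in ACSS2 KO UUO.

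**Figure D3:**
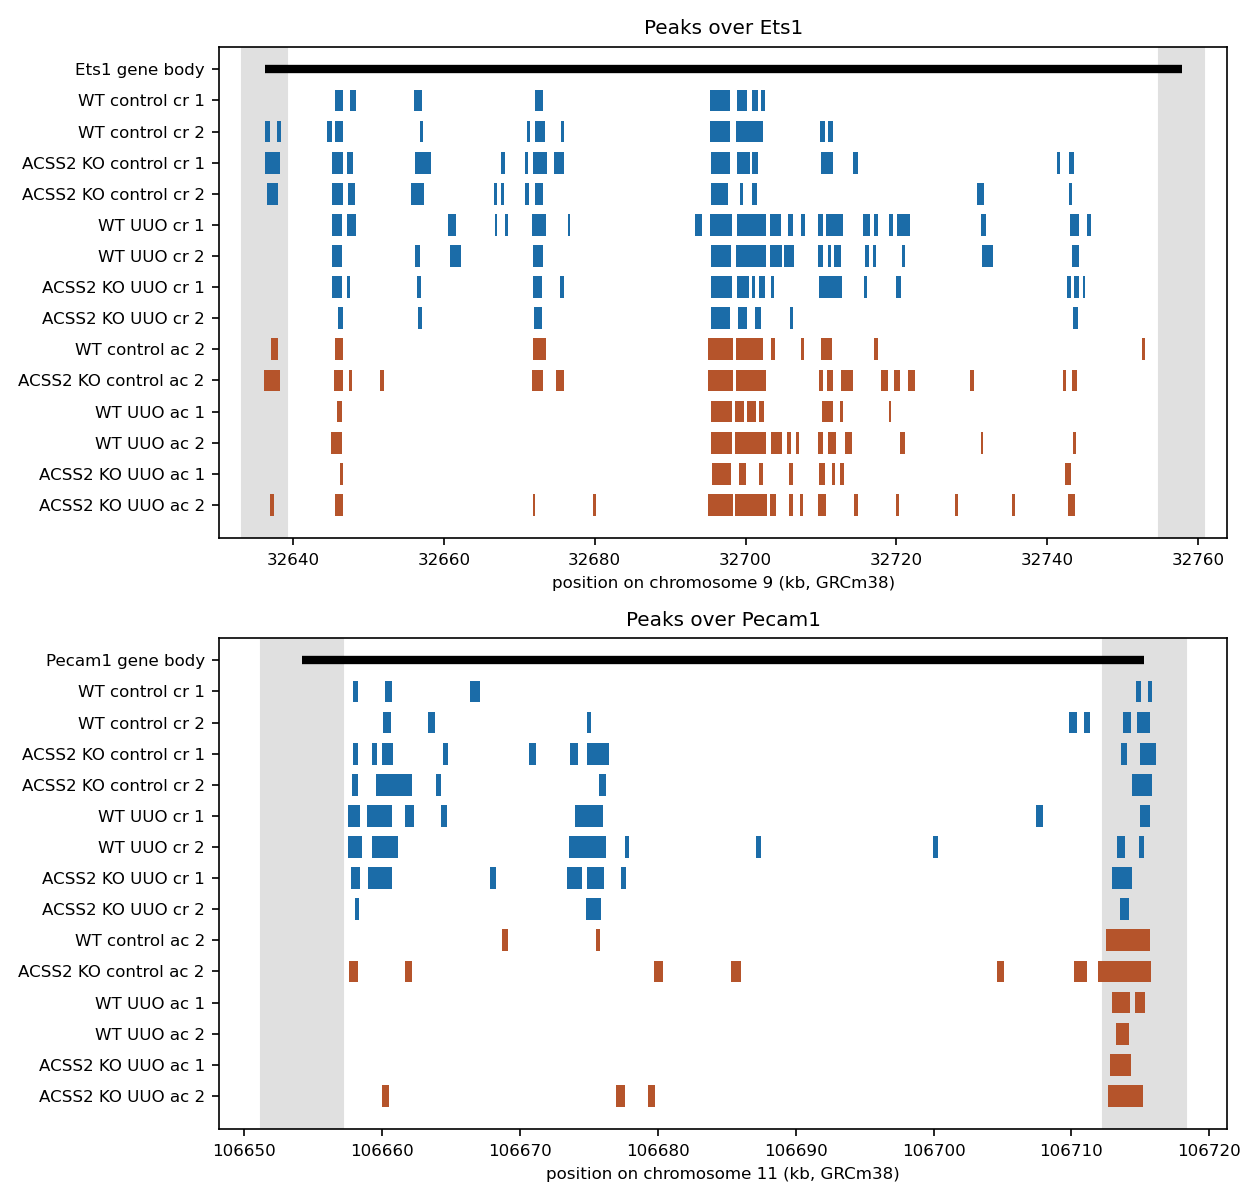
Peaks of each library over Ets1 (top) and Pecam1 (bottom), by position in kb, with H3K9cr in blue, H3K9ac in orange, the gene body in black and the 3 kb either side of each gene end in grey. At Ets1 the peak in the left grey band is absent from all 4 H3K9cr UUO libraries, and at Pecam1 the widest peaks in the right grey band are those of H3K9ac in the control libraries.

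Fli1, an ETS factor, and Klf4, a factor that responds to flow, had wide H3K9cr cover in both operations. Fli1 carried 3.58 and 4.94 kb of H3K9cr in WT control, 5.12 and 2.91 kb in ACSS2 KO control, 4.16 and 3.35 kb in WT UUO, and 4.20 and 3.34 kb in ACSS2 KO UUO. Klf4 carried 2.86 and 3.12 kb of H3K9cr in WT control, 4.03 and 2.86 kb in ACSS2 KO control, 3.98 and 3.45 kb in WT UUO, and 3.96 and 3.77 kb in ACSS2 KO UUO. Both sets of values overlapped between operations. Klf4 had a log2 difference of 0.22 (limma adjusted p = 0.265) that became 0.37 with centring (limma adjusted p = 0.0354). H3K9ac at Klf4 differed by -0.28 without centring and 0.20 with it, so that its direction depended on the scaling. H3K9ac at Klf2, a related factor, was 4.71 and 5.56 kb in the controls, 2.84 and 3.17 kb in WT UUO, and 3.27 and 4.48 kb in ACSS2 KO UUO, lower in every UUO library (log2 difference -0.53, limma adjusted p = 0.0667; -0.05 with centring). Inside Fli1, away from the ends, H3K9ac covered 8.06 and 8.50 kb in the controls, 0.766 and 2.76 kb in WT UUO, and 2.25 and 4.03 kb in ACSS2 KO UUO, which was not tested.

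Erg and Lmo2, factors of endothelial and blood cells, were marked away from their ends. Erg spans 227 kb, and its interior carried peaks in all 14 libraries, from 0.566 kb in ACSS2 KO UUO replicate 2 to 6.78 kb in ACSS2 KO control replicate 1 for H3K9cr. H3K9ac in the interior of Erg was 6.07 and 6.78 kb in the controls, 2.83 and 1.74 kb in WT UUO, and 1.05 and 3.34 kb in ACSS2 KO UUO. The Lmo2 interior carried peaks in all 14 libraries as well, for example chr2:103968831-103971476 for H3K9cr in WT control replicate 1. Tal1, another factor of blood and endothelium, and Sox17 had no call for UUO.

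The 6 genes of arteriovenous signalling and connexins included Notch4 and Ephb4, which were among those with most H3K9cr cover. Notch4, a Notch receptor of endothelium, carried 5.62 and 6.07 kb of H3K9cr in WT control, 5.79 and 5.42 kb in ACSS2 KO control, 6.56 and 6.23 kb in WT UUO, and 5.39 and 5.60 kb in ACSS2 KO UUO. Ephb4, the ephrin receptor of venous endothelium, carried 5.18 and 6.12 kb in WT control, 5.70 and 6 kb in ACSS2 KO control, 4.64 and 5.45 kb in WT UUO, and 4.82 and 5.33 kb in ACSS2 KO UUO. Both kept H3K9cr at all times, and the operations overlapped. Notch4 shares its end windows with Gpsm3 and Pbx2, and Ephb4 with Zan, so that part of this cover may belong to those genes.

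H3K9ac at Ephb4 was 5.06 and 6.90 kb in the controls, 3.16 and 3.81 kb in WT UUO, and 3.52 and 3.75 kb in ACSS2 KO UUO. It fell by 0.66 (95% CI -1.02 to -0.31, limma adjusted p = 0.0409), a difference that shrank to -0.18 with centring. Gja4 encodes connexin 37, a gap junction protein of arteries, and its H3K9ac was 3.23 and 3.91 kb in the controls, 0 and 0.297 kb in WT UUO, and 0.403 and 1.32 kb in ACSS2 KO UUO. It fell by 2.17 (95% CI -3.13 to -1.21, limma adjusted p = 0.0318), and by 1.69 with centring (limma adjusted p = 0.0419). H3K9cr at Gja4 was 0.854 and 1.44 kb in WT control, 2.18 and 2.08 kb in ACSS2 KO control, 1.22 and 0.794 kb in WT UUO, and 0.729 and 0 kb in ACSS2 KO UUO, where the operations overlapped. Gja5, the connexin 40 gene, had a peak at an end in 2 of 8 H3K9cr and 1 of 6 H3K9ac libraries. Dll4 and Efnb2, arterial ligands of Notch and Eph receptors, had no call in either mark.

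None of the 4 genes of G protein-coupled receptors and their partner protein passed the threshold for UUO, with medians of -0.23 for H3K9cr and -0.87 for H3K9ac. S1pr1, the sphingosine-1-phosphate receptor that steadies endothelial junctions, carried 2.80 and 4.95 kb of H3K9cr in WT control, 5.52 and 3.36 kb in ACSS2 KO control, 5.13 and 4.91 kb in WT UUO, and 4.33 and 3.58 kb in ACSS2 KO UUO. Its H3K9ac was 4.29 and 5.21 kb in the controls, 3.24 and 3.95 kb in WT UUO, and 3.10 and 4.72 kb in ACSS2 KO UUO. In both marks the operations overlapped. Aplnr, the apelin receptor, was singled out after its values were seen: H3K9ac was 2.54 and 3.59 kb in the controls, 0 kb in both WT UUO libraries, and 0 and 1.70 kb in ACSS2 KO UUO (log2 difference -2.28, limma adjusted p = 0.0528). Calcrl encodes the adrenomedullin receptor and Ramp2 its single-pass partner protein, and neither was called.

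The 3 angiogenic surface and secreted genes had the lowest H3K9cr median among the 8 role groups, -1.17, with 0 of 3 called by limma, and an H3K9ac median of -1.50, with Egfl7 and Mmrn2 lower. Egfl7 encodes a matrix protein secreted by endothelium and hosts the endothelial microRNA miR-126. Its H3K9ac end cover was 6.80 kb in the WT control and 8.41 kb in the ACSS2 KO control library, 1.35 and 2 kb in WT UUO, and 1.5 and 2.41 kb in ACSS2 KO UUO. The lowest control was far above the highest UUO library. Egfl7 fell by 1.82 (95% CI -2.33 to -1.32, limma adjusted p = 0.0221), and by 1.34 with centring (limma adjusted p = 0.0130). H3K9cr at Egfl7 was 4.29 and 5.77 kb in WT control, 7.10 and 6.09 kb in ACSS2 KO control, 4.91 and 0.649 kb in WT UUO, and 3.15 and 2.09 kb in ACSS2 KO UUO, with a log2 difference of -1.17 (limma adjusted p = 0.114). WT UUO replicate 1 overlapped the controls. Mmrn2, a matrix protein of endothelium, fell in H3K9ac by 1.5 (limma adjusted p = 0.0389), and Robo4, a receptor that guards vessel integrity, was not called. Mmrn2 passed in H3K9cr when the Y-linked peaks were a term (log2 difference -1.22, limma adjusted p = 0.0126).

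Of the 4 genes of tone, haemostasis and activation, Nos3, the endothelial nitric oxide synthase, was the one tested, without a call (log2 difference -0.20 for H3K9cr and -1.12 for H3K9ac). Vwf, von Willebrand factor, had 0 kb at its ends in every library of both marks. Its interior carried H3K9cr in 7 of 8 libraries and H3K9ac in all 6, mostly as a peak near chr6:125572621-125573680, the interval in WT control replicate 2 of H3K9cr. Interior H3K9cr at Vwf was 0 and 1.06 kb in WT control, 1.02 and 2.35 kb in ACSS2 KO control, 2.23 and 1.13 kb in WT UUO, and 1.34 and 1.81 kb in ACSS2 KO UUO. Interior H3K9ac was 0.766 and 0.994 kb in the controls, 0.452 and 0.442 kb in WT UUO, and 0.387 and 1.04 kb in ACSS2 KO UUO. In both marks the operations overlapped. The selectins Sele and Selp, which leukocytes bind on activated endothelium, had no peak at an end or inside the gene, apart from 0.375 kb of H3K9cr at an end of Selp in ACSS2 KO control replicate 1.

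Plvap and Ehd3 mark specialised capillaries, since PLVAP forms the diaphragms of fenestrae and EHD3 is found in glomerular endothelium. H3K9ac at Plvap was 5.55 and 7.12 kb in the controls, 1.04 and 0 kb in WT UUO, and 0.949 and 2.32 kb in ACSS2 KO UUO. It fell by 2.35 (95% CI -3.60 to -1.10, limma adjusted p = 0.0405), the largest decrease of the 11 calls. H3K9cr at Plvap was 1.65 and 2.38 kb in WT control, 4.22 and 3.25 kb in ACSS2 KO control, 1.86 and 1.43 kb in WT UUO, and 1.75 and 0 kb in ACSS2 KO UUO, a log2 difference of -1.10 (limma adjusted p = 0.208). These H3K9cr values overlapped between the operations, and Gtpbp3 and Gm46041 share the end windows.

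Ehd3 carried 3.03 and 3.01 kb of H3K9ac in the controls, 0.945 and 0.808 kb in WT UUO, and 0.571 and 1.41 kb in ACSS2 KO UUO. It fell by 1.33 (95% CI -1.98 to -0.67, limma adjusted p = 0.0365). H3K9cr at Ehd3 was 1.72 and 1.92 kb in WT control, 1.43 and 0.827 kb in ACSS2 KO control, 2.90 and 0.754 kb in WT UUO, and 1.29 and 0.811 kb in ACSS2 KO UUO. The highest and the lowest H3K9cr value of Ehd3 both came from WT UUO (log2 difference -0.11, limma adjusted p = 0.854).

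Whether UUO changed the marks to different degrees was tested by the interaction of mark and operation over all 14 libraries, a test added after the data were seen. It called 0 of 39 endothelial genes with limma, against 0.391% of 21746 genes, and 7 of the 39 had an unadjusted p under 0.05, against 18.3% of all genes. The median interaction was 0.49 over the endothelial genes and 0.32 over all genes, which became 0.16 and -0.02 with centring. Over all genes 51 interactions were higher and 34 lower, or 60% higher, and with centring 31 were higher and 108 lower, or 22.3% higher. A difference between the marks in their response to UUO was thus not established for any gene of the set.

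The effect of ACSS2 deletion was compared next. For H3K9cr, ACSS2 KO against WT over both operations gave 0 calls among the 39 endothelial genes and 0% of 21116 genes with limma. At an unadjusted p under 0.05 there were 2 endothelial genes (Emcn and Sox7, both higher in ACSS2 KO) and 1069 of all genes. The median log2 difference was 0.06 over the endothelial genes and 0.04 over all genes. Within UUO, limma also called 0 of 39 and 0% of all genes, with 1 endothelial gene (Flt1, lower) and 1745 of all genes at an unadjusted p under 0.05, and medians of -0.15 and -0.08. Adding the Y-linked term within UUO gave 4 endothelial genes and 10.2% of all genes at an unadjusted p under 0.05, with 0 called.

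The interaction of genotype and operation in H3K9cr called 0 of 39 endothelial genes and 0% of all genes with limma, with 4 and 2804 at an unadjusted p under 0.05. Its median was -0.30 over the endothelial genes and -0.26 over all genes, and centring brought these to -0.04 and 0.00. The 4 genes were Flt1, Aplnr, Gja4 and Sox17. With the Y-linked peaks as a term, 10 of 39 endothelial genes and 15.5% of all genes had an unadjusted p under 0.05, and limma again called 0. At 4 of 39 genes (Sox17, Cd34, Aplnr and Flt1), against 6.2% of all genes, the UUO libraries lay on opposite sides of the control libraries in the 2 genotypes without overlap, a count added after the values were seen.

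For H3K9ac, ACSS2 KO against WT within UUO gave 0 calls among 37 endothelial genes and 0% of 18264 genes with limma. At an unadjusted p under 0.05 there were 1 endothelial gene (Efnb2, higher) and 1110 of all genes. The median was 0.26 over the endothelial genes and 0.18 over all genes, and centring brought these to 0.06 and -0.02. With the Y-linked peaks as a term, which leaves 1 residual degree of freedom, both medians were 0.00 and 15 of 37 differences were positive in place of 30. There limma called 0 endothelial genes beside 278 higher and 3 lower of all genes. At an unadjusted p under 0.05 there were 2 of 37, against 8.33% of all genes. The fit without that term had 2 residual degrees of freedom and also made no calls on simulated data with known changes, so that its 0 says nothing about the genes. Without ACSS2 KO UUO replicate 1, which leaves the Y-linked replicate 2 alone in its group, 3 endothelial genes and 1269 of all genes were called, and without replicate 2 the counts were 0 and 232. In both fits the spread comes from the WT UUO libraries alone and the lone ACSS2 KO library is assumed to vary like them, so that these counts are no evidence of a difference by genotype. The 2 replicates of that group had 44.8 and 86.6 kb of summed end cover, below and above the WT UUO libraries at 48.3 and 49.6 kb.

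Across all groups, H3K9cr and H3K9ac differed at few of the endothelial genes. The marks are described as mapped in shared samples, and this fit took all 14 libraries as separate. Of 39 tested, 1 had more H3K9cr cover (Icam2, log2 difference 1.05, 95% CI 0.50 to 1.60, limma adjusted p = 0.0188), against 9.52% of 21746 genes. Icam2 had no H3K9ac end peak and met the filter of 2 libraries through H3K9cr alone, so that no weight is put on this call. Pecam1 had less (log2 difference -0.81, 95% CI -1.22 to -0.40, limma adjusted p = 0.0155), against 2.63% of all genes. The median was -0.06 over the endothelial genes and 0.09 over all genes. Over the whole gene with 3 kb either side, the Pecam1 difference turned to 0.62, as its interior carried 1.43 to 6.52 kb of H3K9cr in all 8 libraries and H3K9ac in 3 of 6. Without the WT control H3K9ac library limma called 0 of these genes beside 1881 of all genes, and the median changed sign, to 0.05. Centring gave 3 genes with more and 1 with less H3K9cr.

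The labels do not say which libraries share a kidney, but 5 libraries of each mark could be paired by group and by the number inside the peak names, and each pair had the same kind of sex-linked peaks. With these 5 pairs as a term, a fit added after the data were seen, limma called 0 of 39 endothelial genes, where 3.36% of 20802 genes had more H3K9cr and 1.23% less. At an unadjusted p under 0.05 there were 7 of 39, against 24.3% of all genes. With centring limma called 1 endothelial gene with more and 1 with less H3K9cr, against 9.15% and 3.02% of all genes. Pecam1 and Icam2 kept their directions (log2 differences -0.67 and 0.81, limma adjusted p = 0.0574 and 0.125). At Kdr H3K9cr was below H3K9ac in all 5 pairs, at 2.76 against 3.44 kb in WT control, 2.49 against 3.11 kb in ACSS2 KO control, 0.317 against 0.707 kb in WT UUO, and 0 against 0.561 and 1.87 against 2.91 kb in ACSS2 KO UUO (limma adjusted p = 0.0854). The pattern was not particular to Kdr, since Eng, Klf2 and Pecam1 had it too. Its share over all genes was not counted. The interaction of mark and operation in the pairs called 0 of 39 endothelial genes and 0 of all genes with limma, with 8 of 39 and 13.2% of all genes at an unadjusted p under 0.05.

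The share of H3K9ac end cover that also lay under H3K9cr in a library of the same group was lower at the endothelial genes than over all genes in every pair of libraries compared. In control kidneys it was 49.7 to 73.3% at the endothelial genes in 4 pairs, against 69 to 77.2% over all genes. In UUO kidneys it was 48.2 to 83.2% in 8 pairs, against 68.4 to 92%. The pairs share libraries, and no test was made.

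Genes of some other cell types also differed with UUO in these libraries. Where 7.96% of all genes fell in H3K9cr and 12.6% in H3K9ac, 7 and 6 of 10 proximal tubule genes fell, with medians of -1.90 and -2.02. Their summed H3K9cr end cover was 28.5, 24.7, 41.6 and 23.9 kb in the control libraries (WT, then ACSS2 KO), with Slc34a1 highest on average, and 3.93, 1.29, 4.69 and 7.31 kb in UUO, where Slc34a1 was again highest and Slc5a12 and Kap were at 0 in all 4. Their H3K9ac sums were 26.2 and 29.5 kb in the controls, with Lrp2 highest, against 2.47 and 2.54 kb in WT UUO and 9.78 and 9.25 kb in ACSS2 KO UUO, where Slc34a1 was highest on average and Slc5a2 was at 0 in all 4. Slc5a12 in H3K9cr and Slc5a2 in H3K9ac thus met the filter of 2 libraries through the control libraries alone, and no weight is put on these calls. Of the 9 leukocyte genes 8 were tested in H3K9cr, and Ptprc, Tyrobp and Cd14 rose (median 0.95), while Tyrobp rose in H3K9ac (median 0.80 over 7 tested). Over all genes 1.74% rose in H3K9cr and 0.159% in H3K9ac. In H3K9cr, Ptprc and Tyrobp met the filter through the UUO libraries alone, so that no weight is put on those calls either. Leukocyte sums for H3K9cr were 3.18, 4.99, 5.75 and 4.66 kb in control, with Cd68 highest and Ptprc, Adgre1, Itgam, Tyrobp, Cd3e and Lyz2 at 0, and 20.2, 17.1, 12.9 and 8.21 kb in UUO, with Tyrobp highest on average and Itgam at 0.

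For H3K9ac the leukocyte sums were 4.92 and 7.90 kb in the controls, 5.44 and 12.1 kb in WT UUO, and 8.31 and 16 kb in ACSS2 KO UUO. Cd68 was highest in the controls and Cd14 on average in UUO, with Ptprc, Adgre1, Itgam, Cd3e and Lyz2 at 0 in both controls and Itgam at 0 in all 4 UUO libraries. Among 10 pericyte and fibroblast genes 0 were called by limma in H3K9cr and 2 fell in H3K9ac (Tagln and Cspg4), with medians of 0.46 and -0.72. The distal nephron list had 1 of 9 lower in H3K9cr and 2 of 8 in H3K9ac, with medians of -0.26 and -1.14 and all 8 H3K9ac differences negative, so that its H3K9ac median was as low as that of the endothelial genes. The podocyte list had 0 of 6 and 1 of 5 lower, with medians of 0.05 and -0.62, and the platelet list 0 of 6 and 0 of 3 by limma, with medians of 0.10 and -0.54. Over all genes 7.96% fell in H3K9cr and 12.6% in H3K9ac, so that 1 or 2 calls in such short lists say little. The part of these cell types in the endothelial values was not tested.

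A wider list of 47 further genes of endothelium and vascular signalling was read beside the set. For H3K9cr, 4 of 44 tested fell with UUO (Adm, Apela, Ednrb and Angpt1) and 0 rose, beside 7.96% and 1.74% of all genes, with a median of -0.17. For H3K9ac, 3 of 41 fell (Hey1, Hey2 and Arhgef15) and 1 rose, Vcam1, which encodes an adhesion molecule of activated endothelium, beside 12.6% and 0.159% of all genes, with a median of -0.50. The 44 endothelial genes thus had a lower H3K9ac median than the wider list, whose median was close to that of all genes, and this difference was not tested. Apela in H3K9cr and Hey2 in H3K9ac met the filter of 2 libraries through the control libraries alone, so that no weight is put on their calls.

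Annotated starts with promoter sequence in the RefSeq table (GRCm38.p6) were found for 25 of the 44 genes, with 31 starts. In the control libraries of H3K9ac 18 of the 31 starts lay in a peak for WT and 24 for ACSS2 KO, against 9 and 8 in WT UUO and 5 and 17 in ACSS2 KO UUO. For H3K9cr the counts were 13 and 19 in WT control, 20 and 18 in ACSS2 KO control, 18 and 10 in WT UUO, and 17 and 12 in ACSS2 KO UUO. H3K9ac thus covered fewer of the starts in each UUO library than in either control library, and H3K9cr counts overlapped. Of all 32851 starts, H3K9ac covered 33.8% in the WT and 41.5% in the ACSS2 KO control library, 24.8 and 27.5% in WT UUO, and 25.8 and 34.8% in ACSS2 KO UUO, so that 3 of the 4 UUO libraries were below both controls there too. For H3K9cr the share of all starts ran from 34.5 to 41.2% over the 8 libraries.

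Egfl7 has 3 such starts on the plus strand, and they differed in H3K9ac. A peak touched the 250 bases before the start at 26581083 in both control and 1 of 4 UUO libraries, those before 26583865 in both control and 0 of 4, and those before 26586636 in both control and 3 of 4. For H3K9cr the counts in the same order were 4, 4 and 2 of 4 control and 2, 2 and 0 of 4 UUO libraries. The bases before the outermost start of Egfl7, Gja4 and Flt4, which had the largest decreases among the genes called lower in H3K9ac that have an entry, are shown 5′ to 3′ on the strand of the gene. Those before the other Egfl7 starts lie inside the gene and are not shown. Capitals mark matches to AGGAAG or CCGGAA on either strand, letters that ETS factors can bind. The intervals are chr2:26580833-26581082 (plus strand), chr4:127314040-127314289 (minus strand) and chr11:49609429-49609678 (plus strand).
Egfl7: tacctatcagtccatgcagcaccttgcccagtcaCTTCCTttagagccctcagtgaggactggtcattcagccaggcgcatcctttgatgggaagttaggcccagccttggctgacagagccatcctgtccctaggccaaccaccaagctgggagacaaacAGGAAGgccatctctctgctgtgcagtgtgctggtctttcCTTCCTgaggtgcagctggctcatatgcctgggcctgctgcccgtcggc
Gja4: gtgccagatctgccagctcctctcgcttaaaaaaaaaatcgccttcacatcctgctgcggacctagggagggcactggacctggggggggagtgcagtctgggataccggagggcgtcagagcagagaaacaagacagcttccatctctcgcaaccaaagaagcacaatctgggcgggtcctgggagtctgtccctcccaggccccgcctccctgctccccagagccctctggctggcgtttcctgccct
Flt4: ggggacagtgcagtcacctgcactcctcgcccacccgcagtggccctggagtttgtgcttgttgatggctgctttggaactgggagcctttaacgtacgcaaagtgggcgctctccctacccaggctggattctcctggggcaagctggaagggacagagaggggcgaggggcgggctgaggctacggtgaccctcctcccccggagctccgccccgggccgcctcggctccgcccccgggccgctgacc
Peaks touched the Gja4 interval in both control and 1 of 4 UUO libraries of H3K9ac, and the Flt4 interval in 1 of 2 control and 0 of 4 UUO libraries. Egfl7 held 3 matches to AGGAAG, and the Gja4 and Flt4 intervals held none to either motif. The motifs were chosen after the data were seen. Both hold GGAA but differ in the base before it, so that a given GGAA matches at most 1 of them. AGGAAG was found in 14 of the 31 endothelial promoters and in 29.5% of 32851 promoters of the same length, and CCGGAA in 1 of 31 and in 12% of all. A match is a description of the letters. The median GC content was 58.4% in the endothelial promoters and 52.4% in all promoters.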

How the data were processed

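H3K9cr and H3K9ac peak lists of mouse kidney, 14 in all, were read as deposited. The authors aligned reads to mm10 with Bowtie2, called peaks with MACS2 in each library and annotated them with ChIPseeker, for which no versions were given. The deposited values are start and end positions of peaks on mm10, in bases, without heights, scores or strands, so read depth per library and its precision are unknown.

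Gene spans were those of RefSeq on GRCm38.p6. Bases and peaks were counted within 3 kb of either gene end, with overlapping windows merged, and over the gene body, with an overlap of 1 bp counted. Tools were bedtools 2.31.1, Python 3.11.15 (numpy 2.4.6, pandas 2.3.3, matplotlib 3.10.9) and R 4.3.3 with limma 3.58.1. limma (trend) was fitted to log2(bases + 500) for genes with an end peak in at least 2 libraries of the fit. P-values were adjusted by the Benjamini-Hochberg method over all genes, with a threshold of 0.05. UUO against control, and ACSS2 KO against WT in H3K9cr, were fitted with 3 coefficients, without an interaction of genotype and operation. Comparisons within UUO and the interaction of genotype and operation used 4 coefficients, and H3K9cr against H3K9ac used 5. The planned fits were tested on simulated data.

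Libraries were grouped by mark, genotype and operation as labelled. Alternatives were a 1 kb window, the whole gene with 3 kb either side, annotated starts, equal numbers of the longest peaks, centring on the library median, a pseudocount of 100 bases, other filters, a replicate block and leaving out each library. The Y-linked term, the pairs of marks, the interaction of mark and operation, the counts of groups without overlap and the motifs were added after the data were seen. The members and lists were chosen with earlier results of these data known. For the leukocyte list, 1 gene is not reported here.

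Genes were named by rule: those called, up to 5 per comparison with the largest difference, those with most H3K9cr cover, those without end peaks, and a fixed set of well-known markers (Vwf, Pecam1, Cdh5, Kdr, Flt1, Tek, Plvap and Ehd3). Ets1, Klf4, Aplnr, Sox17 and Cd34 and the further genes mentioned were added after their values were seen.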

Additional observations from a re-analysis of the deposited data

Results flagged for a closer look

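The rule that picked out 4 genes was a difference between genotypes in the direction of the H3K9cr shift with UUO, without overlap of the libraries in either genotype. Its values are interactions of genotype and operation on the log2 scale, none of which passed the threshold in limma: -2.1162 for Sox17, a transcription factor of arterial endothelium, -1.9652 for Cd34, -1.5331 for Aplnr and -1.3263 for Flt1 (limma adjusted p = 0.357, 0.377, 0.332 and 0.266). None passed with the Y-linked peaks as a term either (limma adjusted p = 0.197, 0.269, 0.207 and 0.18 in the same order).

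Sox17 carried 0.357 and 2.05 kb of H3K9cr in WT control, 2.69 and 2.41 kb in WT UUO, 3.80 and 1.82 kb in ACSS2 KO control, and 1.68 and 0.535 kb in ACSS2 KO UUO. At Cd34 the values in this order were 0.444 and 1.07 kb, 1.09 and 1.29 kb, 2.70 and 1.72 kb, and 1.30 and 0 kb. Aplnr had 0.771 and 1.75 kb, 2.06 and 2.01 kb, 2.85 and 2.05 kb, and 1.63 and 0.575 kb. Flt1 had 1.53 and 2.22 kb, 2.52 and 2.22 kb, 4.13 and 2.78 kb, and 1.74 and 1.11 kb. The separation in WT was thin at Flt1 (2.219 kb in the higher control and 2.223 kb in the lower UUO library) and at Cd34 (1.069 and 1.094 kb). At each gene UUO was higher in WT and lower in ACSS2 KO, and the WT control library with an Xist peak had the lowest WT value. The reason for the difference was not tested.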

How the results depend on the processing

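The limits are those of peak lists: unknown depth, no heights, 2 H3K9ac control libraries and at most 2 replicates per group. The cause of the changes below was not tested, except where fewer genes or libraries were used by construction.

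Genes called with UUO in H3K9cr (2) numbered 0 with a 1 kb window, 1 at annotated starts, 1 with the longest peaks, 0 without a filter, 5 with the Y-linked term, and 0 to 4 with a library left out. The number of all genes called in H3K9cr moved under 8 alternatives and not under 10, so that these small counts say little about the endothelial genes alone. Genes called with UUO in H3K9ac (11) numbered 1 with a 1 kb window, 19 over the whole gene, 4 at annotated starts, 7 with the longest peaks, 2 with centring, 2 with a pseudocount of 100, 0 without a filter, 0 with the Y-linked term, and 0 to 24 with a library left out. The number of all genes called in H3K9ac moved under 16 alternatives, so that the endothelial counts have meaning only beside it. Whether the endothelial share differed from that of all genes was not tested. The 3 genes with H3K9cr lower in every UUO than every control library became 7 over the whole gene and 5 with the longest peaks. H3K9ac in ACSS2 KO against WT within UUO (0) gave 0 to 3. Leaving out either control library was not run there, since the fit cannot then be made. For H3K9cr in ACSS2 KO against WT within UUO, the number of all genes called moved under 3 alternatives. For the interaction of genotype and operation it moved under 1. The endothelial counts of both were the same under all 18.

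Genes differing between H3K9cr and H3K9ac (2) numbered 1 with a 1 kb window, 0 over the whole gene, 0 at annotated starts, 4 with centring, 0 without a filter, 0 with the marks in pairs, and 0 to 3 with a library left out. Their median (-0.0559) became 0.0364 over the whole gene, where Pecam1 became 0.6153, and ran from -0.1221 to 0.0853 with a library left out. It was positive without ACSS2 KO control H3K9cr replicate 2 (0.0542), ACSS2 KO UUO H3K9cr replicate 2 (0.0147), the WT control (0.046) or ACSS2 KO control (0.0853) H3K9ac library, or ACSS2 KO UUO H3K9ac replicate 2 (0.0016).

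Genes with an end peak in all libraries fell from 26 to 14 for H3K9cr and from 23 to 15 for H3K9ac at annotated starts, which 25 of the 44 genes have. A replicate block gave 2 genes for H3K9cr with UUO, 0 for H3K9ac with UUO and 2 between the marks. Replicate numbers are not known to pair mice, and in 4 lists the number inside the peak names differs from the label. In ACSS2 KO UUO, the lists named 3 in either mark had Y-linked peaks and those named 2 an Xist peak, so that the block may join different mice. Correlations of replicate differences ran from -0.087 to 0.0913 for H3K9cr and were 0.142 for H3K9ac.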
